A study of Mus musculus with 56 samples.

Results

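Livers of day-fed mice are described here over the last 4 h of their food window, which are also the last hours of the light phase. Members are the libraries whose labels give daytime-restricted feeding (DRF) with zeitgeber time (ZT, hours after lights on) 8 or 12, and there are 8 of them among the 56 libraries of the study, 4 at each time. All groups used here were female C57BL/6J mice of 9 weeks, kept under 12 h of light per day on normal chow, and held for 7 days with food in the light phase (DRF) or in the dark phase (nighttime-restricted feeding, NRF, the reference regimen). Besides DRF at ZT8 and ZT12, the groups compared were NRF at ZT8 and ZT12 (same clock times, no food), NRF at ZT20 and ZT24 (the last hours of the night food window) and DRF at ZT0 and ZT24 (same clock time and feeding hour), with 4 animals in each. Each animal gave 1 whole liver at 1 time, so every step over time is a difference between different animals, and p-values measure the spread between them. Whole liver was sequenced after removal of ribosomal RNA, and in such bulk samples fewer cells of a type cannot be told apart from less RNA per cell.

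The liver clock is a loop in which BMAL1 (gene Arntl), paired with CLOCK or NPAS2, switches on the Period, Cryptochrome and Rev-erb genes, whose proteins then repress that pair or its genes. Feeding is a strong time cue for this loop in the liver, while light sets the clock of the brain, so day feeding of a nocturnal animal sets food and light against each other. Food also drives protein synthesis and folding, lipid synthesis and glycogen storage, and the end of a meal window is when these programs give way to those of fasting.

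Gene values are given as scaled counts: whole counts were rebuilt from the logarithmic values in the deposited table and put on a common scale across libraries. Length was not divided out, and a scaled count of 1 gene is therefore set only against the same gene in other libraries. The 8 libraries held between 359.6 and 588.8 M recovered counts, where all 56 held between 309 and 695 M, and within a group the correlation between libraries across genes lay between 0.9795 and 0.9849 at ZT8 and between 0.9836 and 0.987 at ZT12. A step is the mean at ZT12 less the mean at ZT8 on the scale log2(scaled count + 1), on which the fold of a weakly expressed gene comes out too small, and a gene is said to have risen or fallen where limma's adjusted p over all 25397 genes was under 0.05. By that rule 1167 genes (4.60%) rose and 1324 (5.21%) fell in the day-fed liver. For 2166 of the genes called (8.53% of those tested) the 4 libraries at ZT8 and the 4 at ZT12 did not overlap. The counts rested in part on single animals: without ZT12 replicate 4 they were 719 and 840, and without ZT8 replicate 1 they were 774 and 862. On the values as deposited, 82.4% of the genes called were higher at ZT12, against 46.8% on scaled counts. The share was 54.3% with median-of-ratios scaling and 54.4% after exon length correction.

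Gene length moved with this step. The median exon length was 5482 bases for genes that rose and 2076 for genes that fell, against 2455 for all genes tested. A length index was computed per library as the rank correlation, across genes, of exon length with the library's deviation from the mean of all libraries; genes are not independent replicates, so the index is a description of a library. It was −0.296, −0.158, −0.218 and −0.254 in the ZT8 libraries and 0.119, 0.0982, 0.118 and 0.176 in the ZT12 libraries (exact permutation test over 8 libraries, two-sided p = 0.0286, the smallest this design can give). Across both regimens the index was above 0 in 2 of the 24 libraries of ZT0, ZT4 and ZT8 and in 28 of the 32 libraries of ZT12 to ZT24, so the step crosses a split of the whole study. The same split lies between DRF at ZT0 and at ZT24, where 780 genes (3.07%) differed although clock time and feeding hour were the same. With that difference taken off the step, an alternative chosen after seeing the data, 101 genes were called higher and 102 lower. Among these were 78 of the genes that rose and 61 of those that fell. The subtraction adds the spread of the ZT0 and ZT24 animals, so its SE is larger. A lost call therefore need not mean a smaller step. Cdkn1a, for example, had a log2 step of 1.10 ± 0.24 SE, and of 1.22 ± 0.34 SE less that difference (limma, adjusted p = 0.0773). The step of Clock went from 0.78 to 0.076. The part of this split in each result was not tested. Of the 82 genes named below that were called in the step, 75 stayed called after a correction for exon length. With the difference between ZT24 and ZT0 taken off, 17 stayed called: Dnajb9, Alg2, Xbp1, Npas2, Erbb4, Defb1, Hspa1b, Rrn3 and Urb1 among the rises and Per3, Wee1, Mnt, Hsp90ab1, Hspb1, Lpin2, Mlxipl and Srsf5 among the falls. A kept call need not mean an unchanged step. The step grew in some, from 1.16 to 2.68 in Hspa1b, −0.52 to −1.05 in Mlxipl and 1.25 to 1.71 in Erbb4. In Npas2 it went from 1.29 to 1.13. Abcb11, Cebpb, Cldn1, Clock, Jund, Lamp2, Sik1 and Sycp3 differed between ZT24 and ZT0 in the same direction as in the step, and Hspa1b in the opposite one. On the values as deposited 53 stayed called, and the 29 that did not were all falls: Acot4, Apoc1, Bop1, Cox5b, Cox6a1, Cyp2a5, Dbp, Dnajb6, Dnajb11, Foxo3, Gys2, Hsp90ab1, Hyou1, Jund, Mlxipl, Nampt, Ncl, Ndufa5, Por, Rn7sk, Rpl37, Rpl38, Rpph1, Sik1, Slc15a3, Slc51b, Srsf5, Tfrc and Usp2.

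**Figure D1:**
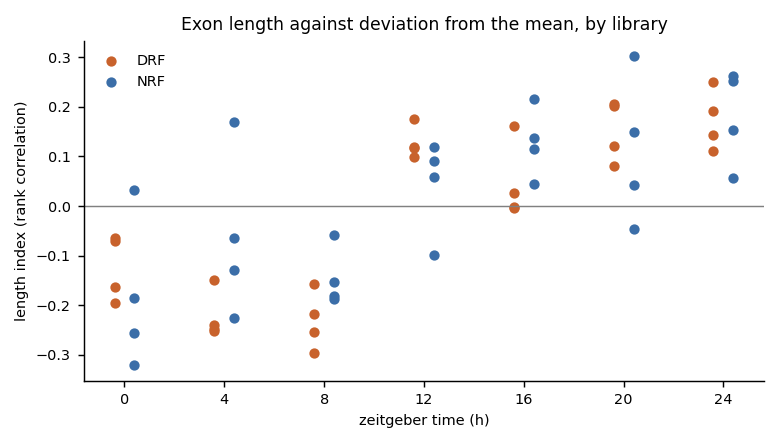
Length index of each of the 56 libraries (vertical axis, rank correlation, no unit) by zeitgeber time in hours, with DRF in orange and NRF in blue. The 4 DRF libraries at ZT8 sit between −0.2965 and −0.1582 and the 4 at ZT12 between 0.09822 and 0.1756.

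Markers of the cell types of liver were checked before the genes were read. Summed hepatocyte markers (12 of 13 measured, with Ttr not rebuilt) lay between 122017 and 140675 scaled counts at ZT8 and between 131215 and 140385 at ZT12, a ratio of 1.01. Endothelial, Kupffer and cholangiocyte markers had ratios of 1.02, 1.03 and 1.09, with exact permutation p of 0.686, 0.83 and 0.143. Summed stellate and fibroblast markers were higher at ZT12 by a ratio of 1.11, with 760.0 to 835 scaled counts at ZT8 and 841 to 932 at ZT12 (exact permutation p = 0.0286, the smallest possible). The members did not move as a set: of 12, 7 had a step above 0, none was called higher and 2 were called lower. Their median exon length was 5414 bases, and the part of gene length in the sum was not tested. Red cell markers (7 of 8 measured) summed to 567 to 988 at ZT8 and 913 to 1577 at ZT12, a ratio of 1.63 with overlapping groups (exact permutation p = 0.0571). Lymphocyte markers had a ratio of 0.626 (p = 0.0857 in the exact permutation test) at summed levels under 12 scaled counts. Neutrophil (5 of 8 measured), adipocyte (4 of 8) and exocrine pancreas markers (2 of 10) summed to under 4 scaled counts in every library, with a ratio of 0.807 for the pancreas markers (exact permutation p = 0.0286, the smallest possible), and several of their most specific members were not analysed here.

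Several of the genes below carry short recognition sequences of clock proteins in the 300 bases around their start, and a few of these stretches are shown as chosen examples. They belong to Per3, which led the falls of the core clock genes, to Clock, which rose less than Npas2, and to genes that moved in opposite directions with the same motif. They were read from RefSeq promoters on build GRCm38.p6, 5′ to 3′ on the gene's strand, with the motif in capitals. The D-box, bound by DBP, TEF, HLF and NFIL3, was searched as TTATGNAA and its reverse-strand form, and 3.39% of 32817 promoters held it. Per3 held it 2 times, at 205 and 158 bases before its start (chr4:151044806-151044880, minus strand):
Per3: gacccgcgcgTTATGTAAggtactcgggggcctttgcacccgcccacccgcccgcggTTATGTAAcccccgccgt
The response element of the REV-ERB repressors, whose core other nuclear receptors also bind, was searched as AGGTCA on both strands and was held by 16.3% of promoters. Clock held it once (chr5:76303597-76303636, minus strand):
Clock: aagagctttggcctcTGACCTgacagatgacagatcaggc
The E-box CACGTG, bound by BMAL1 with CLOCK and also by MYC family proteins, was held by 7.15% of promoters. It stood in the promoters of Mnt, which fell (chr11:74830786-74830821, plus strand), and of Elovl5 (chr9:77917189-77917224, plus strand) and Dnajb9 (chr12:44210155-44210190, minus strand), which both rose:
Mnt: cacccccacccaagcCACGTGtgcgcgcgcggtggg
Elovl5: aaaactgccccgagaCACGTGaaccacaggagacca
Dnajb9: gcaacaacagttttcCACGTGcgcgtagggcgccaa
Other named genes also held the E-box, among them Lpin2 and Mlxipl, which fell, Rrn3, which rose, and Per1, which did not pass. A match is a description of the letters only, and no binding was measured here.

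In the core loop of the clock, all 16 genes were measured, 2 rose, 3 fell and 11 did not pass the test, with a median log2 step of −0.10 against −0.0019 over all genes. Here and in every list below, counts stand against 4.60% risen and 5.21% fallen over all genes. Npas2, the partner of BMAL1 that stands in for CLOCK, had 1.28, 0.891, 0.536 and 1.01 scaled counts at ZT8 and 3.63, 3.25, 4.01 and 3.83 at ZT12. Every ZT12 library was above every ZT8 library, and the mean was 3.95-fold higher (log2 step 1.29 ± 0.17 SE, adjusted p = 1.10e-05). Clock itself rose from 81.9, 72.5, 66.4 and 67.1 to 121, 125, 126 and 122 scaled counts, with the ZT12 animals almost level with each other (1.72-fold, adjusted p = 0.000925). Arntl had 56.2 ± 3.89 and 57.3 ± 4.36 scaled counts (SD, n = 4; log2 step 0.029 ± 0.19 SE, adjusted p = 0.972). Clock also differed between ZT24 and ZT0 under DRF, by 0.70 on the log2 scale (adjusted p = 0.00902), and with that taken off its step was 0.076 ± 0.22 SE (adjusted p = 0.961), where Npas2 stayed called (adjusted p = 0.0126).

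Per3, a Period gene of the negative limb, had 16.9, 18, 18.7 and 17.7 scaled counts at ZT8 and 8.09, 7.68, 4.82 and 5.40 at ZT12. Its mean fell 2.74-fold with no overlap between groups (log2 step −1.35 ± 0.20 SE, adjusted p = 3.23e-05). Cry2 also fell, by 0.78 ± 0.10 SE on the log2 scale (adjusted p = 1.20e-05). The other Period genes did not pass: Per1 had log2 steps of −0.0063 ± 0.27 SE and Per2 of −0.46 ± 0.26 SE (adjusted p = 0.997 and 0.30). Nr1d1, which encodes REV-ERBα, had 5.62 ± 1.2 and 4.13 ± 1.42 scaled counts (SD, n = 4; adjusted p = 0.521). Thus Per3 and Cry2 of the negative limb passed the test and Per1, Per2 and Nr1d1 did not.

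Clock output genes carry the rhythm of the loop into metabolism. Of 15 listed and measured, none rose in limma at an adjusted p under 0.05, 7 fell, and the median log2 step was −0.43. Between ZT0 and ZT24 under DRF the median of this list was −0.35, and with that difference taken off 1 member stayed called lower. Wee1, a kinase that holds cells before mitosis, had 14.4, 14.6, 12.6 and 15.1 scaled counts at ZT8 and 7.49, 6.47, 5.22 and 5.58 at ZT12, which is 2.29-fold lower with no overlap (log2 step −1.09 ± 0.15 SE, adjusted p = 2.52e-05). Usp2, a ubiquitin protease, spread widely at ZT8, at 6.06, 5.58, 15.5 and 10.4 scaled counts, and narrowly at ZT12, at 4.36, 4.63, 3.69 and 3.14. Its call (adjusted p = 0.0105) was lost without ZT8 replicate 3 (adjusted p = 0.0802). Dbp, the D-box activator, fell from 4.84 ± 0.460 to 2.47 ± 0.555 scaled counts (SD, n = 4; adjusted p = 0.0164), and its call was lost without ZT12 replicate 4 (adjusted p = 0.0596). Nampt, the rate-limiting enzyme of NAD salvage, and Por, the reductase that serves microsomal P450 enzymes, fell 1.35-fold and 1.51-fold. Alas1, which starts heme synthesis, had overlapping groups (log2 step 0.77 ± 0.37 SE, adjusted p = 0.190).

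**Figure D2:**
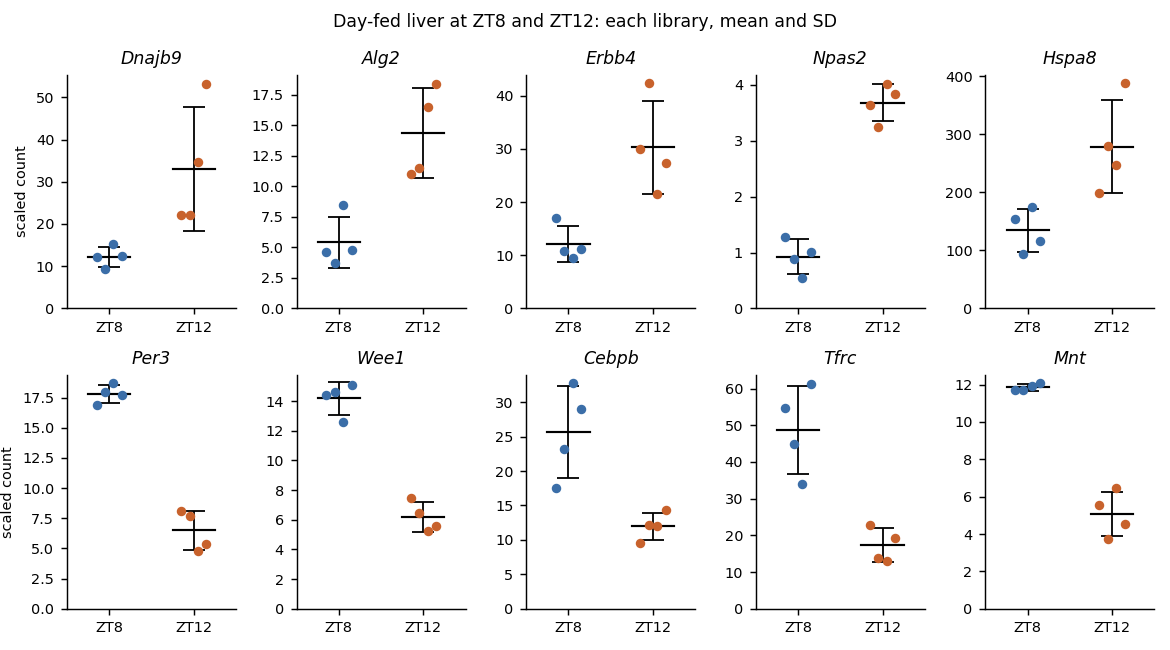
Scaled counts of 10 named genes in each DRF library at ZT8 (blue) and ZT12 (orange), with the mean as a long bar and the SD as whiskers (n = 4, axes start at 0). In all panels the points of the 2 times do not overlap, with Npas2 3.95-fold higher and Per3 2.74-fold lower at ZT12. No overlap was a condition for naming the largest rises and falls, among them Dnajb9, Alg2, Erbb4, Hspa8, Tfrc and Mnt.

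The day-fed step was set against night-fed animals at the same clock times, when these had no food. The NRF step from ZT8 to ZT12 had 2054 genes called (8.09%), 962 higher and 1092 lower, and the difference between the DRF and NRF steps was called for 1133 genes (4.46%), 568 higher and 565 lower in DRF. In the core loop 12 of 16 genes differed in this test, and among clock output genes 11 of 15. Per3 rose in NRF over these hours, from 24.9 ± 7.60 to 56.6 ± 6.08 scaled counts (SD, n = 4), while it fell in DRF, and the difference was −2.54 ± 0.28 SE on the log2 scale (adjusted p = 1.97e-08). Wee1 differed in the same direction, by −2.09 ± 0.22 SE (adjusted p = 8.06e-09). Clock went the other way, from 56.6 ± 14.8 to 30.5 ± 5.36 scaled counts in NRF (SD, n = 4; difference 1.62 ± 0.22 SE, adjusted p = 1.67e-06). Tfrc, the transferrin receptor, rose in NRF from 3.73 ± 0.580 to 17.2 ± 8.96 scaled counts (SD, n = 4) and fell in DRF, a difference of −3.25 ± 0.48 SE (adjusted p = 8.89e-06).

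By the smallest p in that test, the genes called in the DRF step were led by Nampt (difference −1.83 ± 0.15 SE, adjusted p = 1.75e-11), Cldn1 (2.27 ± 0.19, adjusted p = 4.23e-11), Por (−1.67 ± 0.15, adjusted p = 2.81e-10), Dnajb6 (−1.09 ± 0.10, adjusted p = 6.85e-10) and Lpin2 (−1.68 ± 0.16, adjusted p = 1.67e-09). Cldn1 encodes claudin 1, a tight junction protein, and it fell in NRF from 41.9 ± 3.83 to 11.3 ± 1.38 scaled counts (SD, n = 4) while its 8 DRF libraries lay between 36.3 and 73.3. Its rise in DRF (adjusted p = 0.0240) was lost when ZT8 replicate 3, ZT8 replicate 4 or ZT12 replicate 2 was left out (adjusted p up to 0.149). Dnajb6, a J-domain co-chaperone, held 51.5 to 53.7 scaled counts in the DRF libraries at ZT8 and 36.6 to 42.3 at ZT12, and climbed to 84.3 ± 10.9 at ZT12 in NRF (SD, n = 4). Lpin2, a phosphatidate phosphatase of glycerolipid synthesis, had 44.4, 53.1, 66.4 and 48.8 scaled counts at ZT8 and 36.1, 38.9, 29.5 and 29.3 at ZT12 under DRF, and rose over the same hours under NRF, from 48.4 ± 0.941 to 102 ± 21.9 (SD, n = 4).

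Set against the last 4 h of the night food window, the picture of the clock genes was different. The 2 comparisons also differ in the length index. Its medians were 0.0957 and 0.203 in NRF at ZT20 and ZT24, the same side of the split that the DRF step crosses. In NRF at ZT8 and ZT12 they were −0.167 and 0.0746, so that step crosses it too. The part of the split in either difference was not tested. The NRF step from ZT20 to ZT24 had 485 genes called (1.91%), 211 higher and 274 lower, and the DRF step differed from it for 513 genes (2.02%), 300 higher and 213 lower in DRF. In a fit of only the groups compared this NRF step had 21 genes higher and 29 lower, and the difference 465 and 421. The counts of the difference also moved with single libraries, down to 117 and 84 without ZT12 replicate 4, and fell by over 1.5 times without ZT8 replicates 1 (170 and 99), 2 (185 and 140) or 4 (151 and 99) or ZT12 replicate 3 (177 and 110). Among the 16 core clock genes, Per1 and Per2 differed, and among the 15 output genes limma called no difference at an adjusted p under 0.05. Per1 fell in NRF from 5.94 to 1.67 scaled counts and Per2 from 68.1 to 17.7, while neither passed in DRF (differences 1.42 ± 0.38 and 1.47 ± 0.37 SE, adjusted p = 0.0396 and 0.0272). For Per3 the steps were −1.35 ± 0.20 in DRF and −1.67 ± 0.20 in NRF, and for Npas2 1.29 ± 0.17 and 1.01 ± 0.17 (SE). Their differences of 0.32 ± 0.28 and 0.28 ± 0.24 did not pass (adjusted p = 0.633 and 0.628), which does not show the steps to be alike.

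**Figure D3:**
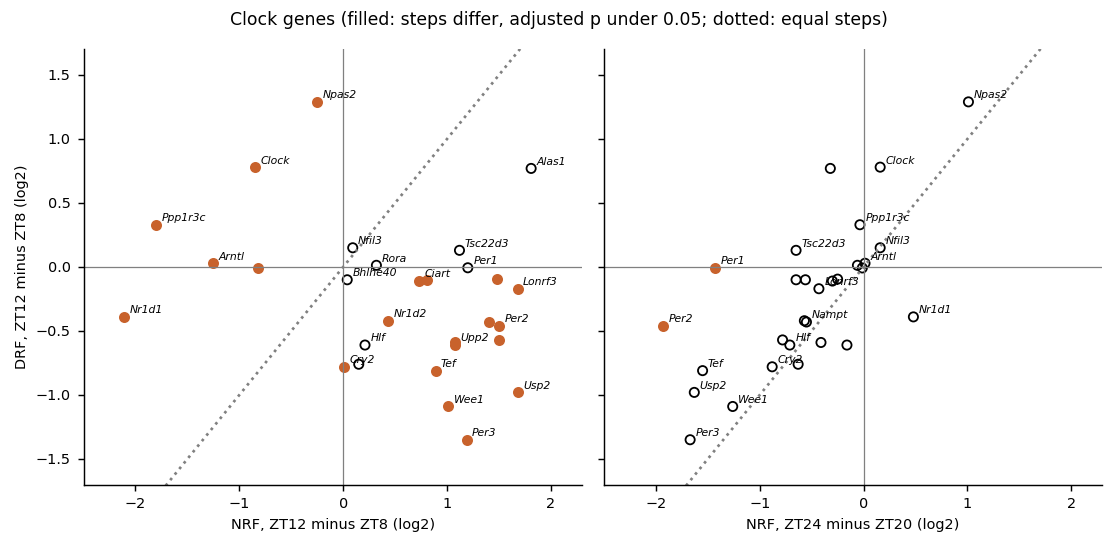
Log2 step from ZT8 to ZT12 under DRF (vertical) against the NRF step from ZT8 to ZT12 (left) and from ZT20 to ZT24 (right) for the core and output clock genes reported here, with labels left out where points crowd. Filled points differ between steps at an adjusted p under 0.05, among them Per3, Wee1 and Clock on the left, and Per1 and Per2 on the right, where Per3 lies at −1.67 in NRF and −1.35 in DRF.

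Genes called in the DRF step with the smallest p against the night food window were AC121967.1, a processed pseudogene (difference 0.28 ± 0.044 SE, adjusted p = 0.000840), Urb1 (1.04 ± 0.17, adjusted p = 0.00149), Slc15a3 (−1.03 ± 0.17, adjusted p = 0.00149), Nsmce4a (−0.72 ± 0.12, adjusted p = 0.00170) and Bmp2 (−0.71 ± 0.12, adjusted p = 0.00216). Urb1, a nucleolar factor of ribosome assembly, had 5.81, 5.88, 8.56 and 7.11 scaled counts at ZT8 and 10.3, 12.6, 12.1 and 15.4 at ZT12 under DRF, against means of 11.9 and 9.97 at the end of the night food window. Bmp2, the endothelial ligand that raises hepcidin, fell from 16.1 to 20.2 scaled counts at ZT8 to 11.2 to 14.1 at ZT12, with no overlap. Nsmce4a, a subunit of the SMC5/6 complex, likewise fell from 32.2 to 38.3 down to 23.1 to 25.5. The counts of AC121967.1 were rebuilt with a searched length of 1000 bases, longer than its annotated span (chr19:9216381-9216960). AC121967.1 held under 0.5 scaled counts in all 8 libraries and may share reads with the gene it was copied from, and 28.1% of the exon bases of Slc15a3 lie opposite exons of Tmem132a. Without stated use of strand in counting, reads of such partners cannot be told apart.

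Folding in the endoplasmic reticulum (ER) was among the groups with members at both ends. Of 30 ER chaperone and unfolded protein response genes, 4 rose, 3 fell and 23 did not pass, with a median log2 step of 0.048. Over all genes 4.60% rose and 5.21% fell. Dnajb9, an ER co-chaperone of BiP and a target of the XBP1 branch, was the largest rise among named genes with a mean of at least 5 scaled counts, at 12.1, 9.36, 15.2 and 12.4 scaled counts at ZT8 and 22.1, 22.2, 34.6 and 53.2 at ZT12. As that ranking required, the lowest ZT12 library stood above the highest ZT8 library, and the mean was 2.69-fold higher (log2 step 1.28 ± 0.22 SE, adjusted p = 0.000192). Dnajb9 also rose in NRF at the same clock times, by 0.85 ± 0.22 SE (limma, adjusted p = 0.00993). Its DRF step did not pass as different from that one (adjusted p = 0.577) or from the night food window (adjusted p = 0.187). Xbp1, which encodes the transcription factor of that branch, rose 1.5-fold from 34.9, 32.1, 32.4 and 28.2 to 39.1, 52.8, 47.0 and 52.0 scaled counts (adjusted p = 0.000411). Sec23b, a coat protein of vesicles leaving the ER, rose 1.51-fold (adjusted p = 0.0195), a call lost without ZT8 replicate 4 or ZT12 replicate 4 (adjusted p up to 0.105).

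Other lumenal chaperones named here fell or did not pass the test. Hspa5, which encodes BiP itself, had 111, 73.3, 91.8 and 97.0 scaled counts at ZT8 and 52.0, 68.7, 74.1 and 113 at ZT12, with overlapping groups (log2 step −0.31 ± 0.24 SE, adjusted p = 0.502). Dnajb11, a lumenal co-chaperone, fell 1.56-fold (adjusted p = 0.0104), and its call was lost without ZT12 replicate 1 (adjusted p = 0.0663). Hyou1, a large lumenal chaperone, had overlapping groups and a call (adjusted p = 0.0442) that held only when ZT8 replicate 3 or 4 or ZT12 replicate 4 was the library left out (adjusted p up to 0.225 otherwise). Alg2, a mannosyltransferase that builds the lipid-linked glycan for N-glycosylation, rose as far as Dnajb9, from 4.66, 3.73, 8.49 and 4.81 to 11, 11.5, 16.5 and 18.4 scaled counts (2.65-fold, log2 step 1.28 ± 0.23 SE, adjusted p = 0.000317). Dnajb9, Xbp1 and Alg2 also stayed called with the difference between ZT24 and ZT0 taken off (adjusted p = 0.0341, 0.0369 and 0.0369).

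Cytosolic heat shock genes split in the same way, with 4 of 19 risen, 5 fallen and a median log2 step of −0.19, where 4.60% of all genes rose and 5.21% fell. Hspa8, the constitutive HSC70 chaperone, had 154, 93.2, 174 and 116 scaled counts at ZT8 and 199, 279, 247 and 388 at ZT12, a 2.07-fold rise without overlap (log2 step 1.04 ± 0.23 SE, adjusted p = 0.00267) whose call was lost in a fit of the compared groups alone. Hspa1b, the stress-inducible HSP70, rose from 0.653, 0.515, 1.2 and 0.873 to 1.44, 1.79, 2.79 and 8.96 scaled counts (adjusted p = 0.0446). The call of Hspa1b held only when ZT12 replicate 1 or 2 was the library left out (adjusted p up to 0.285 otherwise), and its near-identical copy Hspa1a, which shares reads with it, did not pass (adjusted p = 0.0606). Hspb1, a small heat shock protein, fell from 10.8, 15.6, 14.9 and 12.0 to 6.39, 7.07, 6.98 and 6.23 scaled counts (2.0-fold, adjusted p = 0.000581). Hsp90ab1, the constitutive HSP90, fell from 385, 341, 288 and 374 to 200.3, 197, 217 and 248 (1.61-fold, adjusted p = 9.08e-05). Hsf1, the heat shock factor, did not pass (log2 step −0.17 ± 0.14 SE, adjusted p = 0.533). Against the night food window, the step of Hspa8 was higher by 1.21 ± 0.33 SE and that of Xbp1 by 0.57 ± 0.15 SE (adjusted p = 0.0415 and 0.0323). At the same clock times neither difference from NRF passed in limma (Hspa8 0.54 ± 0.33 SE, adjusted p = 0.474).

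Of the 4 ER and 4 heat shock genes that rose, Dnajb9, Xbp1, Hspa8 and Hspa1b were followed over the day. Each had its lowest DRF mean at ZT8, which follows in part from their choice as genes that rose from ZT8. Hspa8 had its highest DRF mean at ZT4, at 604 scaled counts, and its lowest at ZT8, at 134, and the same times held the highest and lowest DRF means of Dnajb9 (45.7 and 12.3), Xbp1 (53.9 and 31.9) and Hspa1b (18.1 and 0.810). Under NRF the highest means of Hspa8, Dnajb9 and Hspa1b were at ZT16, which like ZT4 in DRF is 4 h into the food window. For Xbp1 the highest NRF mean was at ZT12 (49.6), and Hspa5 had its lowest DRF mean at ZT20 (38.9), so neither time was shared by the whole group. Among genes likewise named for their step, Npas2, Clock, Alg2, Cdkn1a and Elovl5 had their highest DRF mean at ZT12, and Tfrc and Mnt at ZT8.

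**Figure D4:**
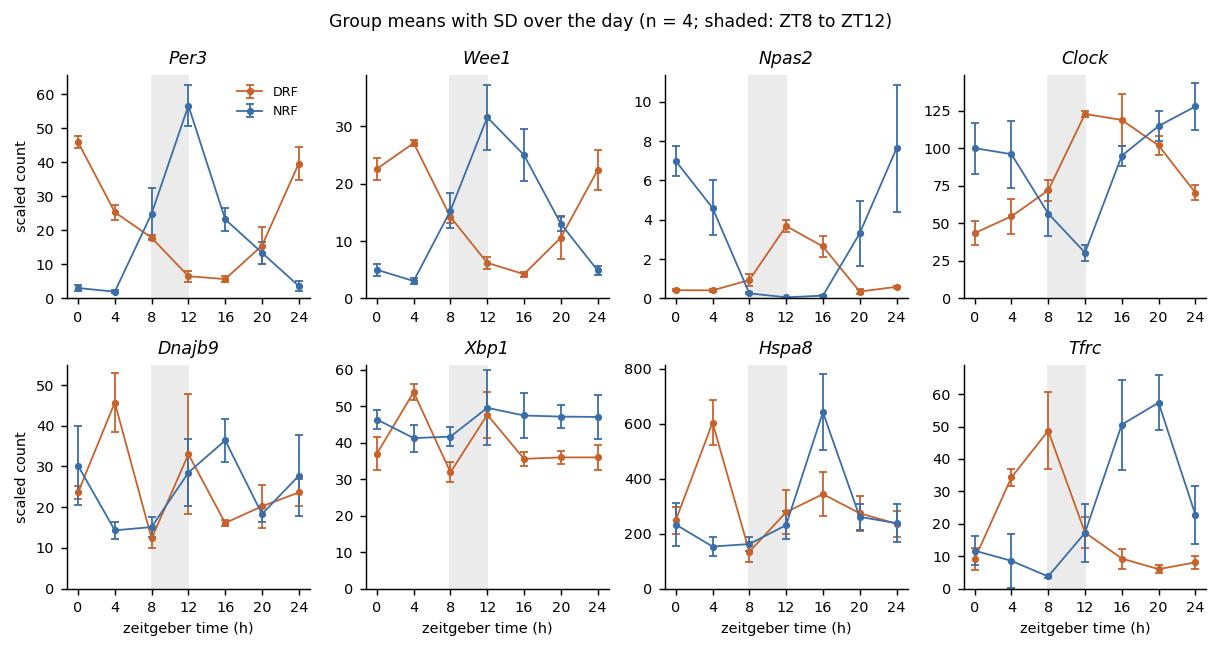
Mean scaled count with SD (n = 4) of 8 named genes by zeitgeber time in hours, DRF in orange and NRF in blue, with the window from ZT8 to ZT12 shaded. Under DRF, Dnajb9, Xbp1 and Hspa8 have their highest mean at ZT4 and their lowest at ZT8, and Npas2 and Clock have their highest at ZT12.

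Other genes that led the rises came from several functions. For the 12 largest rises and the 12 largest falls, no overlap between the times was a condition of the choice. Erbb4, a receptor for neuregulins, had 17.1, 10.8, 9.54 and 11.1 scaled counts at ZT8 and 29.9, 42.3, 21.6 and 27.4 at ZT12 (2.50-fold, log2 step 1.25 ± 0.27 SE, adjusted p = 0.00189). Erbb4 also rose in NRF, by 1.12 from ZT8 to ZT12 and by 0.96 from ZT20 to ZT24 (limma, adjusted p = 0.00453 and 0.0477). Its DRF step differed from these by 0.13 ± 0.38 and 0.29 ± 0.38 SE, which did not pass. Defb1, a secreted beta-defensin, rose from 2.04 to 3.58 scaled counts up to 6.33 to 8.40 (adjusted p = 0.000265), Mospd1 from 5.17 to 6.95 up to 13.4 to 15.1 (adjusted p = 0.000187), and Inhba, the activin A subunit, from 4.70 to 5.93 up to 8.95 to 16.1 (adjusted p = 0.00358). The DRF calls of these 4 genes held when any 1 of the 8 libraries was left out. Keg1, Tmem47, Ccnc (cyclin C), Hbb-bt and Vamp7 completed the 12 largest rises, with log2 steps of 1.24, 1.09, 1.02, 1.02 and 0.89 and adjusted p between 0.0175 and 0.0481. The call of Keg1 was lost without ZT8 replicate 1 or 2 or ZT12 replicate 4 (adjusted p up to 0.0986), and that of Tmem47 without ZT8 replicate 2 or 3 (up to 0.124). The call of Ccnc was lost without ZT12 replicate 1, 3 or 4 (adjusted p up to 0.0621), and that of Vamp7 without ZT8 replicate 1 or 3 or ZT12 replicate 4 (up to 0.118). Hbb-bt kept its call only without ZT12 replicate 3 (adjusted p up to 0.161 otherwise). Hbb-bt encodes a beta globin with a near-identical copy, and the summed red cell markers, which had the 1.63 ratio above, include it.

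Among the largest falls were 3 RNAs made by RNA polymerase III. Rn7s2, a gene of the 7SL RNA of the signal recognition particle (chr12:69361182-69361481, minus strand), had 2463, 2155, 728 and 2531 scaled counts at ZT8 and 290.3, 361, 351 and 514 at ZT12 (log2 step −2.25 ± 0.57 SE, adjusted p = 0.00824). In the same step Gm47287 and Gm47305, predicted genes of 70 bases that lie inside the 7SL genes, went from a mean of 0.00202 scaled counts, 1 recovered count a library, to 793 and 794, so the fall of Rn7s2 alone does not measure total 7SL RNA. Summed over the 6 genes of these loci, the libraries held 6936, 5952, 4054 and 7337 scaled counts at ZT8 and 3543, 4233, 4289.9 and 5224 at ZT12, with overlapping groups. Rn7sk, the 7SK RNA that holds back the elongation factor P-TEFb, fell 2.98-fold from between 1421 and 2348 to between 515 and 819 (adjusted p = 0.0188), a call lost after exon length correction (adjusted p = 0.0590) and without ZT8 replicate 1 or 4 or ZT12 replicate 1 (adjusted p up to 0.0603). Rpph1, the RNA of RNase P, fell 2.86-fold from between 659 and 1001 to between 218 and 369 (adjusted p = 0.00691), and shares 73.0% of its exon bases with Ccnb1ip1 on the same strand. All 3 RNAs are short, with exon lengths of 300, 331 and 319 bases, where the median of all genes that fell was 2076.

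Tfrc, which takes up transferrin-bound iron, was also among the 12 largest falls. It had 54.7, 44.8, 34.1 and 61.3 scaled counts at ZT8 and 22.9, 13.9, 13.0 and 19.4 at ZT12, so the mean was 2.82-fold lower with no overlap (log2 step −1.44 ± 0.34 SE, adjusted p = 0.00408). Of 25 acute phase and iron genes 5 rose and 1, Tfrc, fell, where 4.60% of all genes rose and 5.21% fell. Slc40a1, the iron exporter ferroportin, rose from 45.8, 57.5, 51.3 and 45.7 to 63.0, 87.7, 70.8 and 86.5 scaled counts (1.54-fold, adjusted p = 0.00163). Hamp, which encodes hepcidin, the hormone that closes ferroportin, went from 2871 ± 420.2 to 4083 ± 542 scaled counts (SD, n = 4) without overlap but did not pass (adjusted p = 0.499). Saa1, an acute phase protein, did not pass either (adjusted p = 0.417). Il1r1, the receptor of interleukin 1, had overlapping groups and a call (adjusted p = 0.0450) lost after exon length correction, and kept only when ZT8 replicate 3 or ZT12 replicate 1 was left out (adjusted p up to 0.179 otherwise).

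The remaining large falls were Acot3, Apol9b, Sycp3, Mnt, Hist1h2be, Apoc1 and Cox6a1. Mnt, a repressor that competes with MYC for E-boxes, had 11.7, 11.7, 11.9 and 12.1 scaled counts at ZT8 and 5.55, 3.73, 6.47 and 4.55 at ZT12, with the ZT8 animals level with each other and no overlap (2.34-fold lower, log2 step −1.10 ± 0.18 SE, adjusted p = 9.68e-05). Sycp3, named for its place in the meiotic synaptonemal complex, fell 2.51-fold (adjusted p = 9.50e-05), but 52.2% of its exon bases lie opposite exons of Chpt1. Apol9b fell 2.50-fold (adjusted p = 0.00263). Hist1h2be, a histone H2B gene with near-identical copies, fell 2.98-fold (adjusted p = 0.0201), a call lost without ZT8 replicate 1 or 4 or ZT12 replicate 2 or 3 (adjusted p up to 0.0801). Apoc1, a lipoprotein component, fell from between 1044 and 1757 to between 575 and 677 scaled counts (adjusted p = 0.0168), a call lost after exon length correction (adjusted p = 0.0557) and without ZT8 replicate 1 or 4 (adjusted p up to 0.0641). Cox6a1, a subunit of cytochrome oxidase, fell 2.24-fold (adjusted p = 0.0115), a call lost without ZT8 replicate 4 (adjusted p = 0.0552).

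Ribosome biogenesis and ribosomal proteins leaned in opposite directions. Of 35 ribosome biogenesis genes 9 rose, 2 fell and 24 did not pass, with a median log2 step of 0.20. Rrn3, the factor that brings RNA polymerase I to ribosomal DNA, rose from 31.7, 28.9, 32.4 and 27.7 to 38.3, 43.1, 42.9 and 53.1 scaled counts (1.47-fold, adjusted p = 0.00138). Bop1, a factor of large-subunit assembly, fell from between 37.2 and 44.2 to between 27.2 and 34.1 (adjusted p = 0.00738). Ncl, which encodes nucleolin, fell 1.42-fold and Nop58, a box C/D snoRNP protein, rose 1.55-fold (adjusted p = 0.0217 and 0.0239), and these calls were lost without ZT8 replicate 1 or 4 and without ZT12 replicate 3 for Ncl (adjusted p up to 0.0869) or replicate 4 for Nop58 (up to 0.127). Myc, which drives many of these genes, did not pass (log2 step −0.44 ± 0.18 SE, adjusted p = 0.114). Of 35 ribosomal protein genes none rose and 3 fell in limma, with a median log2 step of −0.18 and 4 above 0. Rpl38 and Rpl37 led these falls (adjusted p = 0.0176 and 0.0308), and both calls were lost after exon length correction (adjusted p = 0.0783 and 0.0546). They were also lost without ZT8 replicate 1 or 4 or ZT12 replicate 1 and, for Rpl37, ZT12 replicate 2 or 3 (adjusted p up to 0.0698 and 0.104). The ribosomal protein genes had a median exon length of 1770 bases and the ribosome biogenesis genes of 4099. After exon length correction none of the ribosomal protein genes passed in limma (median −0.11), while 11 ribosome biogenesis genes were higher and 3 lower (median 0.18). Between ZT0 and ZT24 under DRF the medians were −0.18 for ribosomal protein and −0.056 for ribosome biogenesis genes. With that difference taken off, 1 ribosome biogenesis gene was called higher and 0 lower. In NRF from ZT8 to ZT12, 11 ribosome biogenesis genes rose and 1 fell (median 0.23), where 8.09% of all genes were called. The DRF and NRF steps differed for 2 of the 35, against 4.46% of all genes.

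Respiratory chain genes, of which 30 were measured, had none risen, 4 fallen and a median log2 step of 0.0039. Over all genes 4.60% rose and 5.21% fell. The falls included Ndufa5 and Cox5b, with adjusted p of 0.0491 and 0.0206. Ndufa5 kept its call only when ZT8 replicate 2 was left out (adjusted p up to 0.151 otherwise) and lost it after exon length correction, and Cox5b lost it without ZT8 replicate 1 or 4 or ZT12 replicate 1 (up to 0.0829). Among 34 proteasome genes 1 rose, Psma5 (1.25-fold, adjusted p = 0.0261, lost without ZT8 replicate 3 or 4 or ZT12 replicate 2 or 4 with adjusted p up to 0.113), and the median was 0.018. None of 13 tubulin genes passed, with log2 steps between −0.33 and 0.30.

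Splicing and RNA-binding factors had 4 risen and 1 fallen of 23, with a median log2 step of 0.023, where 4.60% of all genes rose and 5.21% fell. Tra2a, a splicing activator, rose from 1.47, 1.52, 2.72 and 1.5 to 4.58, 3.28, 2.92 and 3.97 scaled counts (2.05-fold, adjusted p = 0.00198), and its paralog Tra2b rose 1.68-fold (adjusted p = 0.00169). Srsf5, a serine and arginine rich splicing factor, fell from between 25.6 and 29.2 to between 12.0 and 23.4 (adjusted p = 0.00511), a call lost without ZT12 replicate 4 (adjusted p = 0.0651).

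Counts in the lipid lists stand against 4.60% higher and 5.21% lower over all genes. Of 23 fatty acid and triglyceride synthesis genes measured 1 rose and 2 fell. Elovl5, an elongase of polyunsaturated fatty acids, rose from 154, 173, 155 and 141 to 297, 279.7, 233 and 233 scaled counts (1.67-fold, log2 step 0.73 ± 0.15 SE, adjusted p = 0.00111), and its step exceeded that of NRF at the same clock times by 1.09 ± 0.21 SE (adjusted p = 0.000612). Lpin2 fell 1.59-fold (adjusted p = 0.000288), as described above, and Mlxipl, the glucose-responsive factor ChREBP, fell 1.44-fold (adjusted p = 0.0286, held only without ZT8 replicate 2 or ZT12 replicate 1 or 3, and up to 0.103 otherwise). Fasn and Acaca, the committed enzymes of fatty acid synthesis, and Srebf1, their insulin-responsive activator, did not pass (log2 steps −0.074, −0.14 and −0.34, adjusted p = 0.958, 0.80 and 0.335). Among 27 cholesterol genes 1 rose and none fell in limma: Insig2, which retains SREBP in the ER, had overlapping groups (adjusted p = 0.0494, held only without ZT8 replicate 3 or ZT12 replicate 4, and up to 0.175 otherwise).

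Of 27 fatty acid oxidation and ketogenesis genes measured, none rose and 3 fell in limma. Acot3, a peroxisomal acyl-CoA thioesterase, had 66.9, 52.9, 55.9 and 68.4 scaled counts at ZT8 and 39.9, 18.1, 17.1 and 19.7 at ZT12, with replicate 1 at ZT12 apart from the other ZT12 animals (log2 step −1.41 ± 0.38 SE, adjusted p = 0.0142). Its neighbour and paralog Acot4 fell 1.58-fold (adjusted p = 0.0214, lost without ZT8 replicate 1 or 3 or ZT12 replicate 3 or 4, up to 0.0742), and these paralogs may share reads. Ppara, the receptor that drives these genes in fasting, and Cpt1a, the rate-limiting enzyme of mitochondrial oxidation, had log2 steps of −0.16 and 0.042 and did not pass (adjusted p = 0.579 and 0.92).

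In carbohydrate metabolism, Gys2, the liver glycogen synthase, fell from 436, 385, 465 and 449.7 to 349, 321, 274 and 253 scaled counts (1.45-fold, adjusted p = 0.00153). In NRF over the same hours Gys2 rose from 519 ± 101 to 1069.6 ± 193 (SD, n = 4), and the steps differed by −1.58 ± 0.16 SE (adjusted p = 4.72e-09). Pfkfb1, which makes the activator of glycolysis, was called (adjusted p = 0.0210) with overlapping groups, and that call held only when ZT8 replicate 3 or ZT12 replicate 2 or 3 was left out (adjusted p up to 0.0997 otherwise). Of the 22 genes of glucose use 1 rose and 1 fell, where 4.60% of all genes rose and 5.21% fell. Among 22 genes of gluconeogenesis and fasting signals none rose and 3 fell in limma. Foxo3, a factor active in fasting, fell from 97.9, 95.9, 126 and 112 to 78.6, 80.9, 78.2 and 73.6 scaled counts (1.39-fold, adjusted p = 0.00278). Sik1, a kinase that restrains cAMP signalling, fell 1.8-fold (adjusted p = 0.0199), lost without ZT8 replicate 4 or ZT12 replicate 1 (adjusted p up to 0.113), and differed from NRF at the same clock times by −2.17 ± 0.34 SE (adjusted p = 2.45e-05). Pck1 and G6pc, the key gluconeogenic enzymes, had overlapping groups (adjusted p = 0.960 and 0.777).

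**Figure D5:**
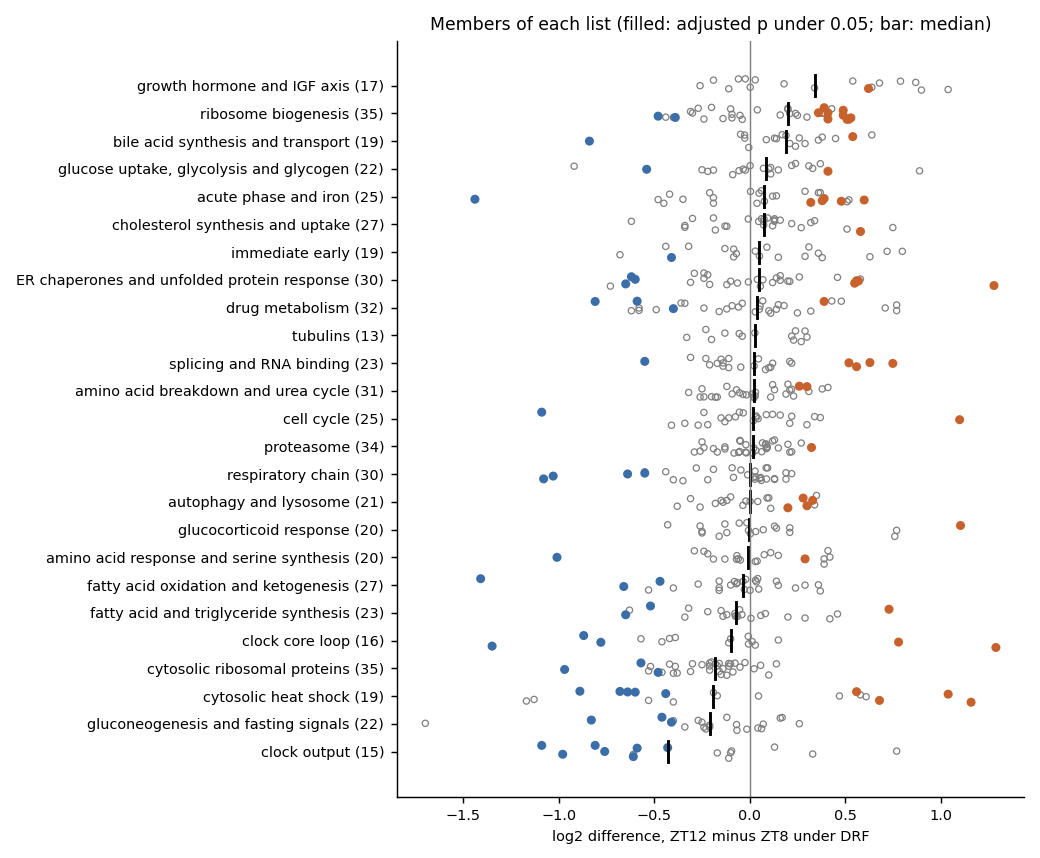
Log2 step from ZT8 to ZT12 under DRF for each member of the 25 pathway lists (number measured in parentheses), ordered by median (black bar), with filled points for members called at an adjusted p under 0.05, orange higher and blue lower at ZT12. The clock output list has the lowest median, −0.43, and the growth hormone and IGF axis the highest, 0.34.

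Among genes of amino acid use 2 of 31 rose, where 4.60% of all genes did, and none fell in limma. These were Cbs, which makes cystathionine, and Otc of the urea cycle (1.23-fold and 1.2-fold, adjusted p = 0.0250 and 0.0386), and their calls rested on single libraries. That of Cbs was lost without ZT8 replicate 3 or ZT12 replicate 3 or 4 (adjusted p up to 0.0971), and that of Otc held only without ZT8 replicate 1 or 4 or ZT12 replicate 3 (up to 0.107 otherwise). In the amino acid response list, 1 of 20 rose and 1 fell. Cebpb, a factor of stress and acute phase responses, had 17.5, 23.2, 32.8 and 29.0 scaled counts at ZT8 and 9.51, 12.1, 12.0 and 14.3 at ZT12 (2.14-fold lower, log2 step −1.01 ± 0.18 SE, adjusted p = 0.000327), and its step was below both NRF steps, by 1.72 ± 0.26 SE and 1.0 ± 0.26 SE (adjusted p = 1.49e-05 and 0.0323). Cebpb also differed between ZT24 and ZT0 under DRF, with a log2 difference of −0.76 (adjusted p = 0.0146), and its step less that difference was −0.25 ± 0.26 SE (adjusted p = 0.817). Asns, asparagine synthetase, was under 0.6 scaled counts in all 8 libraries, with a call (adjusted p = 0.0436) that held only without ZT8 replicate 2 (up to 0.155 otherwise). Atf4, the factor of this response, did not pass (adjusted p = 0.146).

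Bile acid genes had a median log2 step of 0.19, with 1 risen and 1 fallen of 19, where 4.60% of all genes rose and 5.21% fell. Abcb11, the bile salt export pump, rose from 419, 451, 578 and 475 to 636, 704, 766 and 684 scaled counts (1.45-fold, adjusted p = 0.000288), and its ZT24 and ZT0 means also differed, by 0.41 on the log2 scale (adjusted p = 0.0141). Slc51b, a subunit of the basolateral bile acid exporter, fell 3.02-fold from between 1.53 and 3.0 to between 0.536 and 0.916 (adjusted p = 0.00272). Cyp7a1, the rate-limiting enzyme of bile acid synthesis, had overlapping groups (adjusted p = 0.543). Of 32 drug metabolism genes measured 1 rose and 3 fell, among them Por (described above) and Cyp2a5, whose call (adjusted p = 0.0376) was lost after exon length correction and held only when ZT8 replicate 2 was the library left out (adjusted p up to 0.0980 otherwise). The gene that rose was Ugt2b1, a glucuronosyltransferase (1.31-fold, adjusted p = 0.0401, held only without ZT8 replicate 4 or ZT12 replicate 2, up to 0.15 otherwise).

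Cell cycle genes had 1 risen and 1 fallen of 25, where 4.60% of all genes rose and 5.21% fell. Cdkn1a, which encodes the cyclin-dependent kinase inhibitor p21, had 0.703, 1.8, 2.64 and 2.42 scaled counts at ZT8 and 4.38, 6.30, 4.44 and 4.93 at ZT12, its highest group in DRF (2.65-fold, log2 step 1.10 ± 0.24 SE, adjusted p = 0.00234). The gene that fell was Wee1. Cdkn1a was also the single gene called of 20 in the glucocorticoid response list, in which Tsc22d3 and Fkbp5 had overlapping groups (adjusted p = 0.827 and 0.934). Ccnd1, cyclin D1, did not pass (adjusted p = 0.936). In the growth hormone and IGF axis the median log2 step was 0.34 with 1 of 17 called: Lifr, the receptor of leukaemia inhibitory factor, rose from between 169 and 198 to between 227 and 339.9 scaled counts (adjusted p = 0.00335), while Igf1 and Ghr did not pass (adjusted p = 0.557 and 0.898). Lysosome and autophagy genes had 4 of 21 risen and none fallen in limma, led by Lamp2, a lysosomal membrane protein, from 189, 191, 196 and 196 to 241, 244, 254 and 229.9 scaled counts (1.26-fold, adjusted p = 0.00157), and Ulk2, an autophagy-initiating kinase (1.23-fold, adjusted p = 0.0153, lost without ZT8 replicate 1 or ZT12 replicate 3 or 4, up to 0.0603). Lamp2 also differed between ZT24 and ZT0 under DRF, by 0.30 on the log2 scale (adjusted p = 0.0103). Less that difference its step was 0.024 ± 0.10 SE (adjusted p = 0.979), and no gene of the list stayed called. Of 19 immediate early genes measured 1 fell, Jund (adjusted p = 0.0181, lost without ZT8 replicate 1 or 4 or ZT12 replicate 4, up to 0.0709), of whose exon bases 52.6% lie opposite a predicted gene. Among the ZT12 animals Fos and Egr1 were high in replicate 2 alone, at 1.63 and 22.7 scaled counts, and did not pass.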

How the data were processed

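RNA was measured in 56 mouse livers, and the labels put every library in 1 of 14 groups of regimen and time, with 0 columns of values left unassigned. The labels' protocol describes ribosomal RNA depletion, strand-specific libraries and paired reads, while their molecule field says polyA RNA. The submitters' processing notes name CASAVA 1.8, featureCounts 1.5.0-p3 and the builds mm10 and GRCm38.p6, and the use of strand in counting is not given in the sources used here. The gene values deposited by the authors are named TPM but are logarithmic, so their unit is treated as a score: value × exon length follows a·ln(1 + f·k) with whole k. Scaled counts f·k were rebuilt with GENCODE vM21 exon lengths, or a length searched on the values for 2091 genes and for 121 more with high counts. In genes kept out of the fit 96.5% to 99.06% of values were whole within 0.05, where 10% would be by chance. Genes with high counts (those 121, and 1934 with annotated lengths) were judged within 0.2, where 40% would be whole by chance. Of 25415 genes 18 could not be rebuilt, Scd1 and Ttr among them, and 124 were too deep to judge. Recovered totals exceed the stated depth, so they are not reads, no counting interval is given, and precision comes from the spread between animals.

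The design named this unit, and limma 3.58.1 (R 4.3.3) with a variance trend was fitted on log2(scaled count + 1) over all 56 libraries, with Benjamini-Hochberg adjustment over 25397 genes. A filter on a mean deposited value of 0.1 removed 0 genes. The procedure was tested on simulated data. Summed markers and the length index were compared by exact permutation over 8 libraries. The members, gene lists and tests were chosen with earlier results of these data known. Named genes are the 12 largest rises and falls with a mean of at least 5 scaled counts, a symbol, no overlap and no predicted name, the leading and defining members of 25 lists, and the 5 smallest p in each test of a difference. Alternatives were the values as deposited, pseudocounts of 0.1 and 5, median-of-ratios scaling, a correction for exon length, other filters, a fit of only the groups compared, a replicate block, limma without the trend, and each of the 8 libraries left out. RefSeq promoters were found for 93 of 126 named genes. Some listed genes are counted but not reported here by name. Transcript and circular RNA tables were not used.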

Additional observations from a re-analysis of the deposited data

Results flagged for a closer look

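The DRF step differed from the NRF step at the same clock times for 1133 genes, by the test of the difference between the steps. Those with the smallest p among genes called in the DRF step were Nampt (−1.83 on the log2 scale), Cldn1 (2.27), Por (−1.67), Dnajb6 (−1.09) and Lpin2 (−1.68). Against the NRF step over the last hours of the night food window, the same kind of test called 513 genes, and AC121967.1 (0.28), Urb1 (1.04), Slc15a3 (−1.03), Nsmce4a (−0.72) and Bmp2 (−0.71) had the smallest p.

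Single animals stood apart from the other 3 of their group in 15 of 266 groups tested (5.64%), where chance alone gives about 5%. In the ZT8 group these were Atf4 in replicate 2 (11.4 scaled counts), Ccnc in replicate 2 (10.3), Cyp2a5 in replicate 2 (674), Fos in replicate 2 (0.230), Kupffer and myeloid markers in replicate 2 (1169), Fasn in replicate 3 (848), Hspa1a in replicate 3 (0.267), Tra2a in replicate 3 (2.72) and Sec23b in replicate 1 (32.0). In the ZT12 group they were Acot3 in replicate 1 (39.9), adipocyte markers in replicate 1 (2.88), Egr1 in replicate 2 (22.7), Fos in replicate 2 (1.63), Hbb-bt in replicate 3 (328) and Hspa1a in replicate 4 (2.13).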

How the results depend on the processing

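On the values as deposited the DRF step had 3116 genes higher and 667 lower, the lower calls were 552 in the NRF step from ZT8 to ZT12 and 90 in that from ZT20 to ZT24, and the lower differences were 247 at the same clock times and 84 at the same feeding hours, with 67.6% and 76.2% of differences higher against 50.1% and 58.5%. That last share was 67.9% with median-of-ratios scaling and 66.1% after exon length correction. In fits of only the groups compared, the NRF steps had 230 higher and 247 lower, and 21 and 29, the clock-time difference had 339 higher, and the feeding-hour difference had 465 and 421. The fits share fewer libraries in their estimate of the spread. Less the difference between ZT24 and ZT0 the DRF step had 101 and 102. The steps of Cldn1 (−0.15 ± 0.19 SE), Jund (0.50 ± 0.16 SE) and Sik1 (0.31) then changed sign, and none passed in limma (adjusted p = 0.864 for Cldn1 and 0.153 for Jund). The cause was not tested. The exocrine pancreas marker ratio was 0.821 with median-of-ratios scaling. With 1 library left out, the DRF step had 719 to 1015 genes higher and 840 to 1232 lower, the clock-time difference 437 to 562 and 438 to 567, the feeding-hour difference 117 to 323 and 84 to 250, the length index difference was 0.338 to 0.384, and the stellate and pancreas ratios were 1.09 to 1.13 and 0.776 to 0.855, where 7 libraries cannot give an exact p under 0.0571. With the replicate block the DRF step had 1166 and 1321, the clock-time difference 546 and 568 and the feeding-hour difference 286 and 215, and 3 of 82 named calls were lost (Il1r1, Insig2, Ndufa5). Deviations of same-numbered DRF libraries correlated at 0.0493, 0.0602, 0.0742 and 0.00494, and those of differently numbered ones between −0.102 and 0.0775. Such values cannot exclude shared handling by number, and the main fit did not pair animals. Named calls lost were 2 with a pseudocount of 0.1, 3 with 5, 2 with median-of-ratios scaling, 2 without the trend, 7 after exon length correction, 16 in the fit of only the groups compared, and 10 to 24 with 1 library left out. With 4 animals a group, precision rests on the spread between animals, and the depth in reads is not known.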
